A study of Rattus norvegicus with 9 samples.

Results

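The most abundant RNAs of the rat testis were examined as 200 transcripts, chosen by the highest mean signal over 9 libraries out of 19532 transcripts in all. They were 1.02% of the transcripts and held 24.7% of the summed signal. Because abundance selected them, their levels are given as a description, and only differences between groups of libraries were tested. Of the 200, all passed the filter on low values (a signal of at least 0.5 in at least 3 libraries), and 0 were listed at 0 in any library.

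Each library was made from left testis RNA of Sprague Dawley rats, labelled 6 to 7 weeks of age, with 3 libraries per group. The control group had a sham operation without ligation of the vein and 12 weeks of ordinary feeding. The VC group had a varicocele, a dilation of the veins draining the testis, made by partial ligation of the left renal vein, and from 8 weeks after the operation was gavaged with about 2 mL of saline a day for 4 weeks. The VC+MOP group had the same ligation and was gavaged over the same weeks with 300 mg per kg per day of MOP, a polysaccharide extracted from the root of Morinda officinalis. No gavage is listed for the controls, so ligation and gavage cannot be told apart against them. The labelled 6 to 7 weeks cannot be the age at sampling, because the controls were fed for 12 weeks after the operation. In the VC and VC+MOP groups gavage began 8 weeks after the operation. Operated rats without dilated vessels or with a shrunken left kidney were dropped, per the labels, and how many rats stand behind a library is not given. The p-values therefore measure the spread between these libraries, which may be technical in part.

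Germ cells at successive stages of sperm formation make up most of an adult testis. Late germ cells, the haploid spermatids, make very large amounts of a restricted set of RNAs, such as those for the protamines and transition proteins that pack sperm DNA and for parts of the sperm tail, and store many of them for later translation. Sertoli cells, which nurse the germ cells, and Leydig cells, which make testosterone, contribute a smaller part, and RNAs of the mitochondrial genome and of ribosomal proteins are abundant in most tissues. Which of the 200 belong to these classes is not given here: 0 of 19532 identifiers could be paired with a gene symbol, so the label as testis RNA was not checked against cell markers, and no gene name, position or sequence is printed. In whole tissue, fewer cells of a type and less RNA per cell cannot be told apart.

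The signal was concentrated in few transcripts. The 10 highest held 5.27% of the summed mean signal, the 50 highest 12.5%, the 100 highest 17.8% and the 200 highest 24.7%, while 951 transcripts were needed to reach 50%. Mean signals ran from 4050 at the first rank to 286 at the 200th, a ratio of 14.2. Their median mean was 410.2, or 74.8 times that of all transcripts, which was 5.48. The deposited header does not say whether values are scaled by transcript length, so the order of different transcripts is that of the deposited signal.

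The share held by the 200 differed little between groups. It was 24.2%, 24.9% and 25.2% of the summed signal in control 1, 2 and 3. It was 24.6%, 24.9% and 24.1% in VC 1, 2 and 3, and 24.5%, 24.7% and 25.0% in VC+MOP 1, 2 and 3. The group means were 24.8 ± 0.541% for control, 24.5 ± 0.397% for VC and 24.7 ± 0.244% for VC+MOP (SD, n = 3 each), and the ranges of the groups overlapped. The summed signal per library lay between 478800 and 486011, and read depth is unknown.

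The first ranks were held by the same transcripts in most libraries. ENSRNOT00000023769 was first in all 9, at 3603, 4254 and 4177 in the control libraries, 3769.6, 4104 and 4119.8 in VC, and 4184, 3882 and 4358 in VC+MOP. ENSRNOT00000003420 was second in all 9, at 3549, 4124 and 4058 in control, 3748, 3960.1 and 3405 in VC, and 3665, 3657 and 4053 in VC+MOP. ENSRNOT00000003455, the third by its mean of 2635, ranked between 3 and 5, with 2494, 2877 and 2935 in control, 2603, 2991 and 2440.4 in VC, and 2531, 2409 and 2438 in VC+MOP. In these 3 transcripts the groups overlapped, and control 1 was the lowest control library in each.

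The next 5 lay close together and changed places. Their means over 9 libraries were 2363 for ENSRNOT00000012371, 2303 for ENSRNOT00000008700, 2274 for ENSRNOT00000046108, 2242 for ENSRNOT00000028303 and 2192 for ENSRNOT00000075569. Each ranked between 3 and 9 in single libraries, so neighbours in this order did not differ beyond their spread. ENSRNOT00000046108 ranked from 3, in VC+MOP 2, to 8, and ENSRNOT00000075569 from 4, in control 2, to 9, in control 1 and VC+MOP 1. ENSRNOT00000050156, with a mean of 2051, ranked 8 or 9 in every library. ENSRNOT00000043693, with a mean of 1551, ranked between 10 and 12.

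Among these 10 transcripts 0 passed in any comparison. The fits used limma on log2(signal + 0.5) over 19185 transcripts, and a transcript was called where its p, adjusted over all of them by Benjamini-Hochberg, was below 0.05. ENSRNOT00000046108 stood at 2211 ± 86.5 in control, 2174 ± 139 in VC and 2436 ± 137 in VC+MOP (SD, n = 3 each), and VC+MOP stood 0.16 ± 0.06 above VC on the log2 scale (SE; limma adjusted p = 0.788). ENSRNOT00000043693 stood at 1546 ± 27.6 in control, 1491 ± 102 in VC and 1615 ± 27.9 in VC+MOP (SD, n = 3 each), and its VC+MOP libraries all lay above the other 6.

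**Figure D1:**
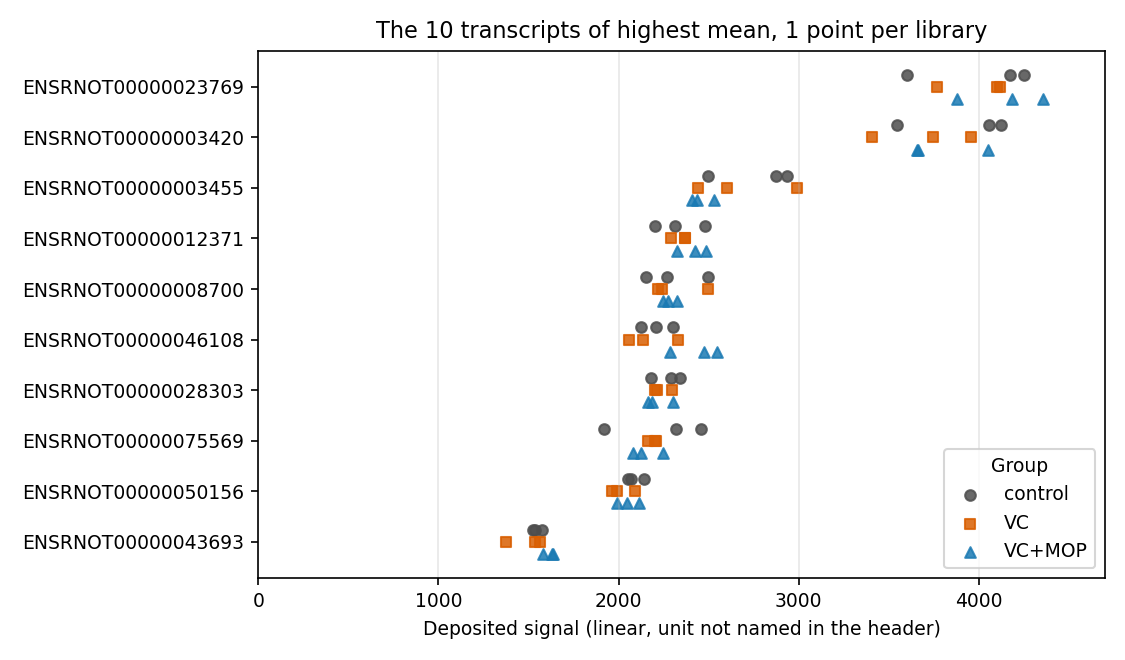
Deposited signal (linear axis) of the 10 transcripts of highest mean, with 1 point per library and the groups set apart by colour and marker. ENSRNOT00000023769 and ENSRNOT00000003420 lead in every library, at 3405 or more, and the groups overlap in most rows.

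Membership was steady across libraries, and the last places were not. The mean over the same 9 libraries chose the 200, which favours high ranks in each, so the counts here are a description. Of the 200 transcripts, 171 were among the 200 highest of every single library, and each library's own 200 highest held between 186 and 195 of them. A further 32 transcripts outside the 200 entered the top 200 of at least 1 library, and 0 did so in all 9. Just inside the limit were ENSRNOT00000018127 at a mean of 286.4, ENSRNOT00000004329 at 285.9 and ENSRNOT00000072138 at 285.7. Just outside were ENSRNOT00000051243 at 285.0, ENSRNOT00000085875 at 284.2 and ENSRNOT00000002897 at 282.5. ENSRNOT00000072138, the last to enter, ran from 253 in VC+MOP 3 to 317 in VC 2, which is far wider than the step across the limit.

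The spread between libraries of a group was small. The within-group coefficient of variation (the SD as a percent of the mean, combined over the 3 groups as a root mean square) had a median of 3.71% over the 200. By rank it was 5.66% for the 10 highest, 2.94% for ranks 11 to 50, 3.50% for ranks 51 to 100 and 3.81% for ranks 101 to 200. Below the 200 it was 4.13% for ranks 201 to 400, 4.76% for ranks 401 to 1000 and 6.33% for ranks 1001 to 5000. The 10 highest thus varied more than the 40 that followed them, as a description of 10 and 40 transcripts. By group, the median was 3.38% in control, 3.08% in VC and 3.24% in VC+MOP.

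Across all 9 libraries, the highest value was on median 1.13 times the lowest. It was under 1.2 times the lowest in 161 transcripts, between 1.2 and 1.5 times in 35, and 1.5 times or more in 4. The narrowest range was that of ENSRNOT00000018177, at 393, 400.5 and 399 in control, 399.6, 391 and 404 in VC, and 399.6, 392 and 402 in VC+MOP, with a highest value 1.03 times the lowest. The lowest within-group coefficient of variation was 0.809%, in ENSRNOT00000008504, which stood at 674, 681 and 675 in control, 688, 686 and 683 in VC, and 660.1, 673 and 675 in VC+MOP. Its VC libraries lay above the other 6 by a narrow margin. ENSRNOT00000013542 (0.916%), ENSRNOT00000010524 (1.08%), ENSRNOT00000022603 and ENSRNOT00000010300 (1.24%) followed. In ENSRNOT00000013542 the 9 libraries lay between 812 and 841.

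In the most variable transcripts single libraries, or a pattern of libraries shared between transcripts, stood apart. ENSRNOT00000017851 had a coefficient of variation of 22.1%: it stood at 422, 397 and 425 in control, 416, 192 and 396 in VC, and 399, 344 and 409 in VC+MOP. VC 2 stood apart at less than the value of every other library, and its rank there was 414. The log2 fold change of VC against control was -0.39 ± 0.26 (SE; limma adjusted p = 0.996), and without VC 2 it was -0.03 ± 0.08 (SE; limma adjusted p = 0.972).

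ENSRNOT00000023003 varied by 13.4%, at 733, 811 and 864 in control, 756, 717 and 539.6 in VC, and 739, 614 and 799 in VC+MOP. Its lowest library was VC 3, and VC+MOP overlapped both other groups. The log2 fold change of VC against control was -0.27 ± 0.14 (SE; limma adjusted p = 0.996), and -0.12 ± 0.11 without VC 3 (SE; limma adjusted p = 0.999). ENSRNOT00000092949 varied by 13.0%, at 370.2, 401 and 416 in control, 382, 442 and 288 in VC, and 397, 376 and 422 in VC+MOP. There too the lowest library was VC 3 and the highest, VC 2, was of the same group. The other 2 of the 5 most variable, ENSRNOT00000047550 (11.9%) and ENSRNOT00000044582 (11.7%), shared a pattern described further on.

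**Figure D2:**
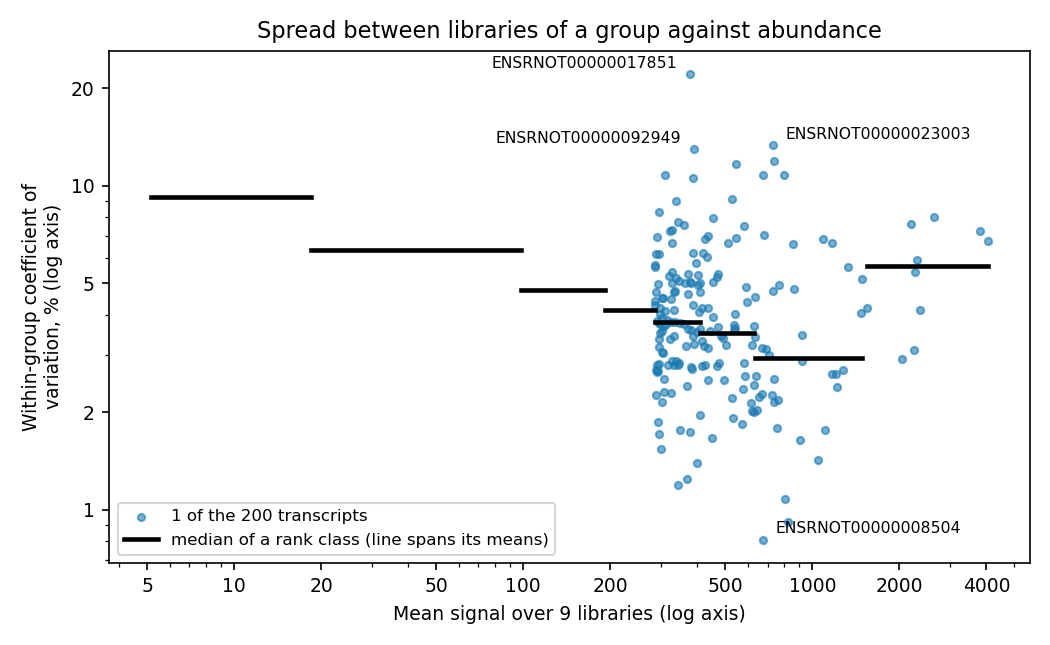
Within-group coefficient of variation against mean signal, both on log axes, for each of the 200 transcripts (points), with the median of each rank class down to rank 10000 (black lines, each spanning its class's means). The medians fall from 9.21% at ranks 5001 to 10000 to 2.94% at ranks 11 to 50 and stand at 5.66% for the 10 highest.

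VC against control addressed the effect of venous ligation with a saline gavage. Of the 200 transcripts 0 passed (limma, adjusted p below 0.05), against 3 of 19185 transcripts tested, or 0.0156%. At an unadjusted p below 0.05 stood 2 of the 200, or 1%, against 4.61% of all transcripts tested. The share was 3.5% at ranks 201 to 400 and 4% at ranks 401 to 1000. None of the 200 was higher in VC at that threshold, against 2.15% of all, and 2 were lower, against 2.47% of all. The direction turned with single libraries. Without control 1 it was 5 transcripts, all lower in VC, against 4.62% of all tested, and without VC 2 it was 5, all higher, against 5.60%. Without VC 3 it was 1, against 3.94%. Rescaling by the median of ratios gave 2, against 4.63% of all, and rescaling by quantiles 3, against 4.51%.

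The transcripts with the smallest p differed between VC and control by under 10%. ENSRNOT00000033404 stood at 409.9, 433 and 415 in control, 393, 377 and 384 in VC, and 430.0, 403 and 446 in VC+MOP. Its VC libraries lay below every other library, -0.12 ± 0.04 from control on the log2 scale (SE; limma adjusted p = 0.996). ENSRNOT00000017770 stood at 321, 285 and 317 in control, 280.2, 284 and 289 in VC, and 320.5, 311 and 309 in VC+MOP, so that VC and control overlapped (log2 fold change -0.11 ± 0.05, SE; limma adjusted p = 0.996). In the other direction, ENSRNOT00000041880 stood at 321, 321 and 309 in control, and at 349.9, 342 and 339 in VC, with no overlap between these groups (log2 fold change 0.12 ± 0.05, SE; limma adjusted p = 0.996). Its VC+MOP libraries were spread over 319.7, 368 and 329. ENSRNOT00000051564 followed, 0.06 ± 0.03 above control on the log2 scale (SE; limma adjusted p = 0.996).

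Small differences were bounded for most of the 200. Their median absolute log2 fold change between VC and control was 0.03 with a median SE of 0.04, beside 0.08 and 0.13 over all transcripts tested. The 95% interval (limma, per transcript, not adjusted for the number of transcripts) kept 190 of 200 (95%) inside a 1.2-fold difference and 198 inside 1.5-fold. Over all transcripts tested 28.8% were inside 1.2-fold. The 2 members not inside 1.5-fold were ENSRNOT00000017851 and ENSRNOT00000023003, in which VC 2 and VC 3 respectively stood apart.

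VC+MOP against VC set the polysaccharide against saline among rats with a varicocele. Of the 200 transcripts 0 passed (limma, adjusted p below 0.05), against 4 of all tested, or 0.0208%. At an unadjusted p below 0.05 stood 32 of the 200 (16%), against 6.28% of all transcripts tested. They comprised 16 higher in VC+MOP, against 2.99% of all, and 16 lower, against 3.29% of all. The share was the same at ranks 201 to 400, where 32 of 200 stood at that threshold, and was 12.7% at ranks 401 to 1000 and 6.68% at ranks 1001 to 5000. Among the 200 it was highest at ranks 11 to 50, with 12 of 40.

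That count depended on single libraries. It was 12, or 6%, without VC+MOP 3, where 4.37% of all transcripts stood at the threshold. It was 21, or 10.5%, without VC 1, where 5.73% of all did. Without VC 2 the split was 15 higher and 8 lower in VC+MOP, or 11.5% together, against 5.15% of all. With libraries rescaled by the median of ratios the count was 21, or 10.5%, against 6.23% of all, of which 13 were higher and 8 lower. With quantile scaling it was 28, against 6.36% of all. The differences were small: the 16 higher transcripts differed by 5.37% to 25.1%, with a median of 8.72%, and the 16 lower ones by 4.32% to 13.3%, with a median of 7.67%.

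ENSRNOT00000046201, thirteenth by mean, had the largest difference of the 200 in this comparison. It stood at 1300.1, 1176 and 1207 in control, 1207, 1261 and 1187 in VC, and 1408, 1534 and 1639 in VC+MOP. All VC+MOP libraries lay above the other 6. The group means were 1228 ± 64.5, 1218 ± 38.4 and 1527 ± 116 (SD, n = 3 each), and VC+MOP stood 25.1% above VC on the fitted scale (log2 fold change 0.32 ± 0.06, SE; limma adjusted p = 0.444). Over the alternatives run its adjusted p lay between 0.181 and 0.795.

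ENSRNOT00000077681 differed in the opposite direction and was tight within VC+MOP. It stood at 757, 803 and 777 in control, 787, 775 and 774 in VC, and 701, 706 and 701 in VC+MOP. The VC+MOP libraries lay below every other library, -9.78% from VC (log2 fold change -0.15 ± 0.03, SE; limma adjusted p = 0.444, between 0.355 and 0.795 over the alternatives). ENSRNOT00000014866 stood at 642, 648 and 629 in control, 626, 623 and 652 in VC, and 701, 668 and 693 in VC+MOP, all VC+MOP libraries above the rest (log2 fold change 0.12 ± 0.03, SE; limma adjusted p = 0.762). ENSRNOT00000016781 stood at 292, 307 and 302 in control, 298, 319 and 303 in VC, and 289.5, 277 and 262 in VC+MOP, all VC+MOP libraries below the rest (log2 fold change -0.15 ± 0.04, SE; limma adjusted p = 0.788).

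For VC+MOP against VC the 200 had a median absolute log2 fold change of 0.05, beside 0.10 over all transcripts tested. The 95% interval kept 174 of the 200 (87%) inside 1.2-fold, against 25.7% of all, and 199 inside 1.5-fold. ENSRNOT00000017851, with its low value in VC 2, was the transcript left outside 1.5-fold.

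**Figure D3:**
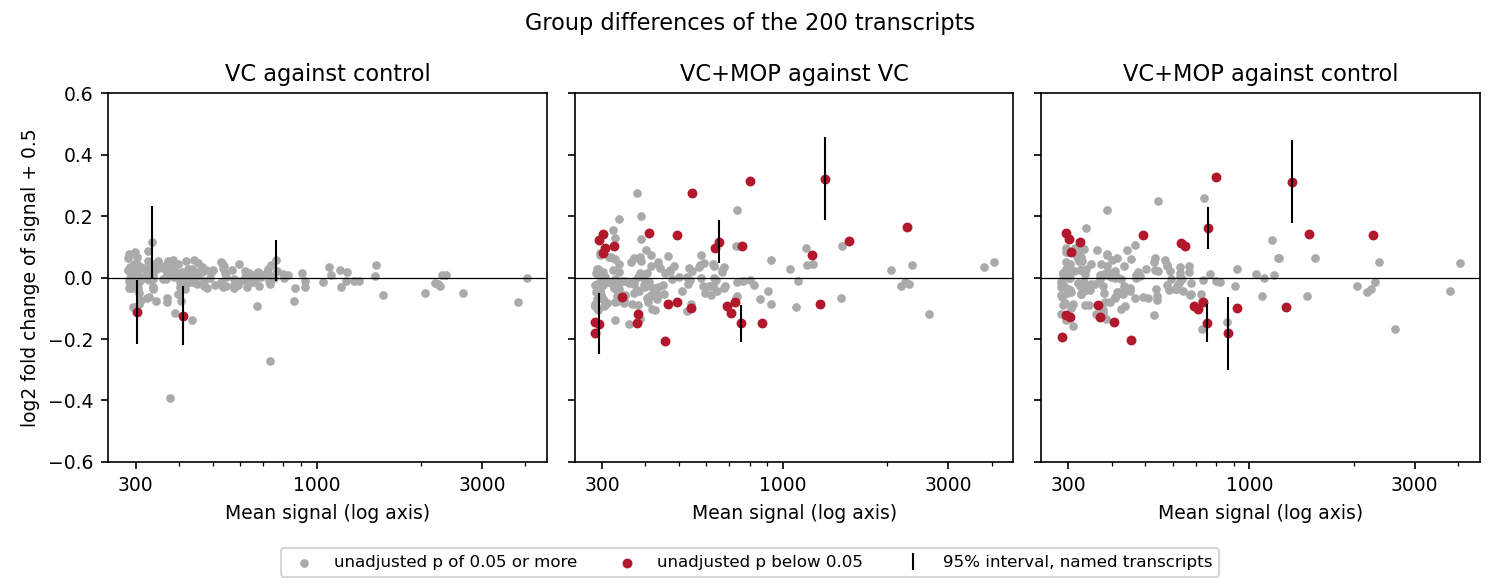
Fitted log2 fold change of signal + 0.5 for the 200 transcripts against mean signal (log axis) in the 3 comparisons, with transcripts at an unadjusted limma p below 0.05 in red and 95% intervals for the named transcripts. There are 2, 32 and 26 red points from left to right, and 0 transcripts passed after adjustment.

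VC+MOP against control set treated rats against sham-operated rats, and shares the VC+MOP libraries with the comparison before. Of the 200 transcripts 0 passed (limma, adjusted p below 0.05), against 8 of all tested, or 0.0417%. At an unadjusted p below 0.05 stood 26 (13%), against 6.59% of all. Of these, 12 were higher in VC+MOP, against 3.18% of all, and 14 lower, against 3.41% of all. The share at that threshold was also 13% at ranks 201 to 400, and it was 13.5% at ranks 401 to 1000. Without control 2 the count was 11, and without VC+MOP 3 it was also 11, or 5.5%, where 4.97% and 5.02% of all transcripts stood at the threshold. Without control 1 it was 39, or 19.5%, against 6.43% of all, of which 10 were higher and 29 lower in VC+MOP. Without control 3 it was 19, or 9.5%, against 6.51% of all, of which 15 were higher and 4 lower, so the direction of the majority turned with a single control library. With median-of-ratios scaling the count was 19, against 6.69% of all, with 11 higher and 8 lower. With quantile scaling it was 27, against 6.72% of all.

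ENSRNOT00000051564 had the smallest p among transcripts higher in VC+MOP. It stood at 714, 722 and 735 in control, 763, 726 and 769 in VC, and 823, 809 and 795 in VC+MOP. Its VC+MOP libraries lay above all others and VC overlapped control, and VC+MOP stood 0.16 ± 0.03 above control on the log2 scale (SE; limma adjusted p = 0.363, between 0.237 and 0.846 over the alternatives). ENSRNOT00000046201 gave 0.31 ± 0.06 (SE; limma adjusted p = 0.381) and ENSRNOT00000077681 gave -0.15 ± 0.03 (SE; limma adjusted p = 0.363). ENSRNOT00000030900 stood at 850.2, 924 and 957 in control, 895, 933 and 840.0 in VC, and 809, 816 and 782 in VC+MOP. All VC+MOP libraries lay below the other 6, -0.18 ± 0.05 from control on the log2 scale (SE; limma adjusted p = 0.731).

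In 11 of the 200 transcripts (5.5%) all VC+MOP libraries lay above the other 6, against 1.76% of all transcripts tested. In 9 of them (4.5%) all VC+MOP libraries lay below the other 6, against 1.94% of all. The 11 summed to 6636 to 6748 in single control and VC libraries and to 7289 to 7609 in single VC+MOP libraries. The 9 summed to 5169 to 5466 in control and VC libraries and to 4833 to 5044 in VC+MOP libraries. The choice of these transcripts fixed that the sums do not overlap, so only their size is a description. These counts use the same libraries as the fits. For VC+MOP against control the median absolute log2 fold change was 0.05 over the 200 and 0.10 over all, and 172 of the 200 (86%) were inside 1.2-fold.

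**Figure D4:**
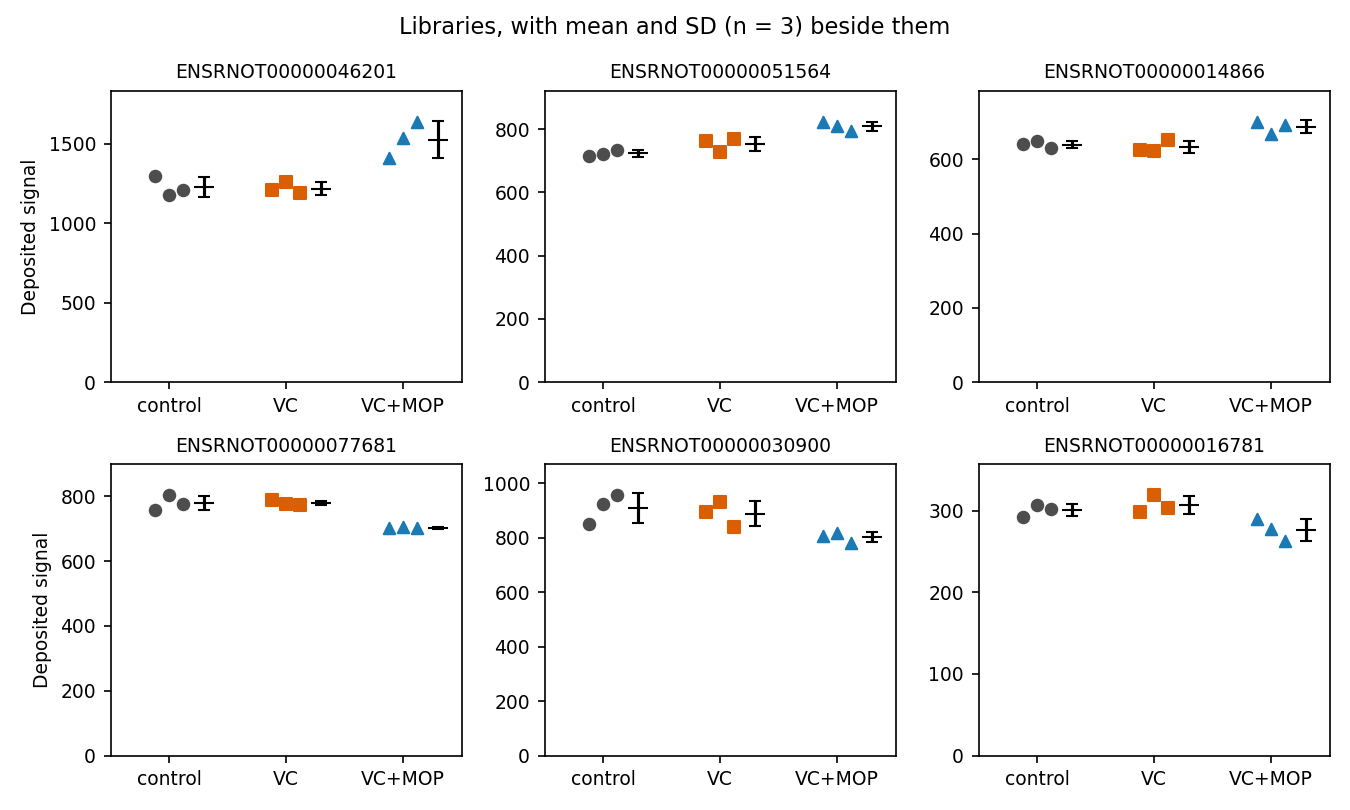
Deposited signal by library (points) in the 3 groups for 6 named transcripts, with the mean and SD (n = 3) beside each group and each axis starting at 0. In all 6 panels the VC+MOP libraries lie beyond the control and VC libraries, and the fitted difference from VC is 25.1% at ENSRNOT00000046201 and under 10% at the others.

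Sets of libraries that crossed the groups also stood out among the 200. In 23 transcripts (11.5%) control 2, control 3 and VC 2 were the 3 highest libraries, against 2.30% of all transcripts tested. Their summed signal was 13659 in control 1, 14944 in control 2 and 15263 in control 3, and 14125, 15313 and 13824 in VC 1, 2 and 3. It was 13762, 13753 and 13471 in the VC+MOP libraries. ENSRNOT00000003455, the third most abundant transcript, was among the 23. In 15 transcripts (7.5%) control 3, VC+MOP 1 and VC+MOP 3 were the 3 highest, against 1.32% of all tested. Their summed signal was 9359, 9645 and 10044 in control, 9567, 9630.3 and 9603 in VC, and 10041, 9580.5 and 10291 in VC+MOP. ENSRNOT00000012371, the fourth by mean, was among them. These sets of libraries were picked after the values were seen, and 57 of the 84 possible sets of 3 libraries were the highest 3 for at least 1 of the 200. The choice of transcripts also fixed in which 3 libraries the summed signals are highest, so only the sizes of the sums are a description.

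A further set differed by more between libraries: its transcripts had a median of 1.31 for the highest over the lowest value, beside 1.16 in the 23, 1.11 in the 15 and 1.13 over all 200. In 9 transcripts (4.5%) VC 2, VC+MOP 2 and VC+MOP 3 were the 3 highest libraries, against 1.29% of all tested. This set of libraries was also picked after the values were seen. It holds ENSRNOT00000047550 and ENSRNOT00000044582, already listed among the most variable, so its wider range is a description only. They were ENSRNOT00000046108, ENSRNOT00000049683, ENSRNOT00000042098, ENSRNOT00000040993, ENSRNOT00000047550, ENSRNOT00000044582, ENSRNOT00000048767, ENSRNOT00000057901 and ENSRNOT00000042928. Together they summed to 7993, 7719 and 7544 in control, 7502, 8650.4 and 7287 in VC, and 8043, 9235 and 9065 in VC+MOP. The choice of these transcripts fixed that VC 2, VC+MOP 2 and VC+MOP 3 lay above the other 6 libraries, controls included, so only the sizes are a description. The medians from the transcripts' own means were -10.0% in VC 1, 8.17% in VC 2 and -12.9% in VC 3.

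ENSRNOT00000040993 showed this pattern clearly. It stood at 757, 714 and 725 in control, 696, 865 and 669 in VC, and 799, 983 and 991 in VC+MOP. VC 2 lay above VC+MOP 1, which the choice of the set fixed, so the VC and VC+MOP groups overlapped. Control lay below all VC+MOP libraries. On the log2 scale VC+MOP stood above VC by 0.32 ± 0.11 (SE; limma adjusted p = 0.788) and above control by 0.33 ± 0.11 (SE; limma adjusted p = 0.731). Without VC 2 the difference from VC was 0.43 ± 0.09 (SE; limma adjusted p = 0.715), and without VC 3 it was 0.24 ± 0.12 (SE; limma adjusted p = 0.738). Leaving out VC+MOP 1 gave 0.42 ± 0.10 from VC (SE; limma adjusted p = 0.720). The loss of VC+MOP 2 gave 0.27 ± 0.12 (SE; limma adjusted p = 0.691), and that of VC+MOP 3 gave 0.26 ± 0.12 (SE; limma adjusted p = 0.980). From control the difference was 0.43 ± 0.10, 0.28 ± 0.12 and 0.28 ± 0.12 (SE) in these refits.

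ENSRNOT00000047550 stood at 711, 665 and 672 in control, 649, 843 and 632 in VC, and 714, 897 and 853 in VC+MOP. ENSRNOT00000044582 stood at 537, 500.3 and 503 in control, 458, 594 and 471 in VC, and 529, 625 and 689 in VC+MOP. In both, VC 2 was nearer to VC+MOP 2 and 3 than to the other VC libraries, which the choice of these transcripts favours. ENSRNOT00000057901, with a highest value 1.15 times its lowest, had the narrowest range of the 9.

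**Figure D5:**
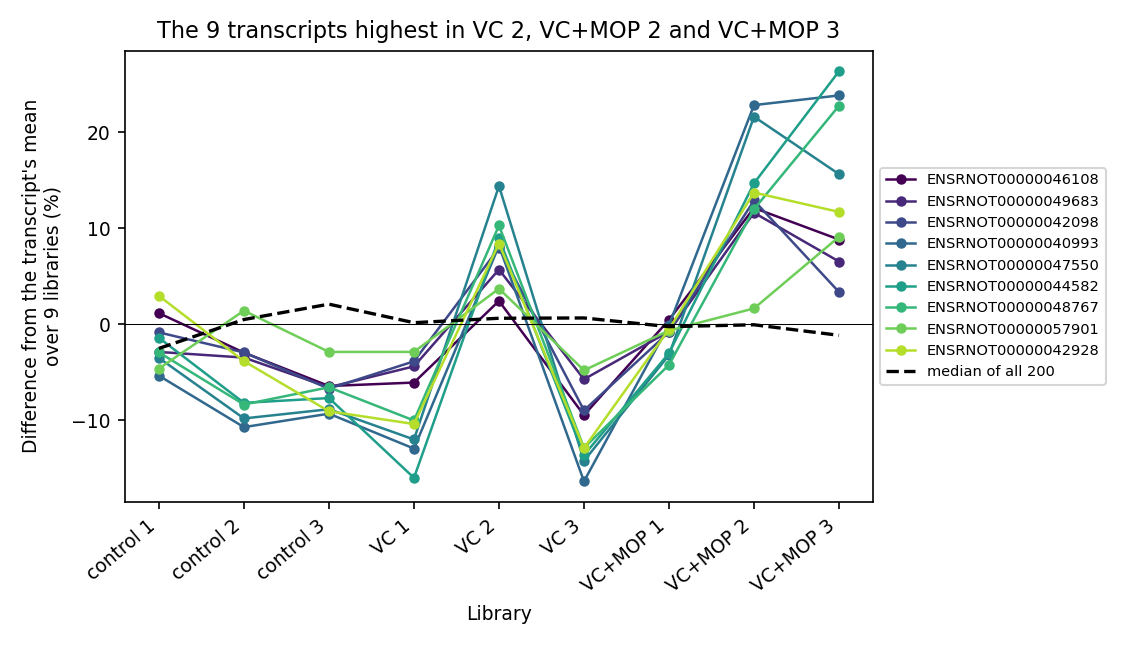
Difference of each library from the transcript's own mean over 9 libraries, in percent, for the 9 transcripts highest in VC 2, VC+MOP 2 and VC+MOP 3, with the median of all 200 as a dashed line; lines join the points of a transcript and replicates have no order. The largest differences are 26.4% above the mean in VC+MOP 3 and -16.4% from it in VC 3. The median of the 200 stays between -2.52% and 2.09%, but a median does not show single values. Outside the 9, ENSRNOT00000017851 lay further from its mean in VC 2.

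Libraries also differed by small amounts over the 200 as a whole. The median transcript lay -2.52% from its own mean in control 1, 2.09% above it in control 3 and -1.16% from it in VC+MOP 3, with the other 6 libraries between these. Control 1 was the lowest library for 46 of the 200 and the highest for 8. VC+MOP 3 was the highest for 40 and the lowest for 41, so that its transcripts departed in both directions. Counts at an unadjusted p below 0.05 without single libraries and with libraries rescaled are given with each comparison above. Over the 200, libraries of the same group differed by a median of 2.42% to 4.89% in 9 pairs, and libraries of different groups by 2.60% to 6.36% in 27 pairs. The medians over pairs were 3.95% within and 4.19% between groups, and the ranges overlapped. The upper end of the range between groups came mostly from 1 library. Every pair of VC+MOP 3 with a control or VC library differed by 5.22% to 6.36%, above the widest pair within a group. Control 1 with VC 2, at 5.18%, was the only other pair above it. No pair of libraries shared an identical value above 0.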

How the data were processed

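The authors deposited a linear signal per transcript, normalized in a way that is not stated, with 1 column per library and no unit (FPKM or TPM) per the file headers. Libraries were grouped by their titles. Per the labels' protocols, RNA was fragmented, primed at random and given a dUTP-marked second strand. The submitters' processing notes list cutadapt, HISAT2 2.0.5, StringTie 1.3.1c and hg19, a human build, with no role or order, although the identifiers are rat Ensembl transcripts. No annotation release was stated in the sources used.

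From these values, 19185 of 19532 transcripts with a signal of at least 0.5 in at least 3 libraries were fitted as log2(signal + 0.5), so folds are on that scale. limma 3.58.1 in R 4.3.3 fitted 1 model to all 9 libraries with group as its term (6 residual degrees of freedom, variance trend, two-sided), with Benjamini-Hochberg adjustment over all transcripts per comparison. The fit was tested on simulated data with independent noise, without patterns shared between transcripts. How many simulated folds it recovered is not given here, so that test bears on no count above. Named were the 10 highest means, the 2 smallest p per direction and comparison, the 5 largest and 5 smallest coefficients of variation, and the 3 transcripts on each side of the 200th rank. Others were chosen after their values were seen, and the members and rules were chosen with earlier results of these data known. Without gene symbols the marker lists were not used. Figures were drawn with matplotlib 3.10.9.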

Additional observations from a re-analysis of the deposited data

How the results depend on the processing

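The count of 0 called transcripts among the 200 held in each comparison under every alternative run at an adjusted p below 0.05: a pseudocount of 0.1 or 1, no filter or a mean of at least 1, scaling by quantiles or by the median of ratios, weighted libraries, robust variances, the compared groups alone, each library left out (0 to 0), and other choices of the most abundant transcripts. An unadjusted p below 0.05 gave 2, 32 and 26, where 4.61%, 6.28% and 6.59% of all transcripts stood at that threshold. With the replicate number as a block the called counts were also 0. At the unadjusted threshold stood 2, 30 and 29, against 4.37%, 6.18% and 6.88% of all transcripts. Same-numbered libraries did not deviate together (correlations from -0.06 to 0.05, 4 of 9 libraries closest to their own number). Leaving out 1 library, a setting added after seeing the data for the unadjusted counts, gave 1 to 5, 12 to 37 and 11 to 39. In the same refits 3.81% to 5.60%, 4.37% to 7.17% and 4.97% to 7.25% of all transcripts stood at the threshold. The share of the signal was 17.8% for the 100 and 34.2% for the 400 highest transcripts, and 24.6% to 24.7% without single libraries. The median coefficient of variation was 3.43% for the 100, 3.91% for the 400, 3.99% with median-of-ratios and 3.51% with quantile scaling, and 3.34% to 3.87% without single libraries. The cause of these moves was not tested. Of 228 refitted folds of the transcripts named for a comparison, 0 passed the threshold and 0 changed direction. Many of these refits keep the fold by construction, so its direction could not change there. These are the filters, robust variances, the compared groups alone, the replicate block, and the loss of a library outside the comparison. The transcripts were also picked by smallest p in the same data. Both scalings moved the median of all transcripts by at most 0.03 on the log2 scale. Depth is unknown, so no counting error is given.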

Other observations

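ENSRNOT00000085875, at rank 202 and so just outside the 200, varied more than the 3 transcripts just inside the limit and the other 2 just outside. It stood at 279.7, 241 and 243 in control, 195, 283 and 268 in VC, and 255, 401 and 392 in VC+MOP. Its 3 highest libraries were VC+MOP 2, VC+MOP 3 and VC 2, the set that marked 9 of the 200 transcripts. It was picked out after its values were seen, and whether it belongs with them was not tested.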
